A study of Mus musculus with 7 samples.

Results

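The 6 transcripts described here, *Cdhr1*, *Doc2g*, *Eomes*, *Tbx21*, *Th* and *Trh*, are genes of olfactory bulb mitral, tufted and periglomerular cells that were measured in dissected cerebral cortex. They are 6 of the 24346 genes listed by symbol in the deposited expression table. The set was chosen by the measured level of *Cdhr1* in the genotype comparison, which was higher in CrT-/y animals, and the other members were added as genes of the same bulb cells with results of that comparison known. For this reason the genotype differences of the 6 genes are given as a description, without a test.

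RNA of the cerebral cortex was sequenced in bulk, 1 library per animal, for 4 CrT-/y males and 3 CrT+/y males aged 100 postnatal days. CrT-/y males are hemizygous for a constitutive deletion of exons 5 to 7 of *Slc6a8*, the X-linked gene of the creatine transporter, and CrT+/y males are wild-type animals taken from the same litters. All 7 animals were on a C57BL/6J background and the labels give no treatment. The loss affects every cell type at once, and the labels do not say which part or which hemisphere of the cortex was dissected, nor which animals shared a litter. In bulk tissue a different number of cells and a different amount of RNA per cell cannot be told apart. Animals are named below by genotype and by the number in their label, 0 to 3 for CrT-/y and 1 to 3 for CrT+/y.

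The olfactory bulb is the first relay of the sense of smell. Axons of olfactory sensory neurons end in its glomeruli on the dendrites of mitral and tufted cells, the glutamatergic output neurons, which send axons to the piriform cortex and other olfactory areas. Periglomerular cells surround the glomeruli as inhibitory interneurons, and some of them make dopamine. Several of the 6 genes are also used outside the bulb, *Th* and *Trh* in other neurons and *Eomes* and *Tbx21* in lymphocytes.

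Members were placed on the mouse assembly GRCm38 with the GENCODE annotation release M21, by symbol. *Cdhr1* (ENSMUSG00000021803.10) lies at chr14:37077857-37098347 on the minus strand and has 1 annotated transcript of 17 exons. *Doc2g* (ENSMUSG00000024871.11) lies at chr19:4003313-4007005 on the plus strand, and its exons overlap those of the protein-coding gene *Gm49405* on the same strand, so fragments of the shared exons cannot be assigned with certainty. *Eomes* (ENSMUSG00000032446.14) lies at chr9:118478212-118486132 on the plus strand, with an antisense transcript, *Gm33460*, across its exons. *Tbx21* (ENSMUSG00000001444.2) lies at chr11:97098071-97115331, *Th* (ENSMUSG00000000214.11) at chr7:142892752-142931128 and *Trh* (ENSMUSG00000005892.4) at chr6:92242061-92244650, all on the minus strand. The 6 genes therefore sit on 6 different chromosomes and are not neighbours.

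The sequences before the transcription start are shown for 4 of the 5 members with a motif match (*Doc2g* had no window to print), because the members varied together over animals and their proximal promoters can be compared. Each is 200 bases 5' to 3' on the gene's own strand, read from RefSeq on GRCm38.p6. The windows are chr14:37098348-37098547 for *Cdhr1*, chr9:118477989-118478188 for *Eomes*, chr7:142900015-142900214 for *Th* and chr6:92244651-92244850 for *Trh*. The *Th* window leaves out the 19 bases next to the start, and no window free of annotated exons was found for *Doc2g*. For *Th* the RefSeq start lies inside the GENCODE span given above, and for *Eomes* it lies before that span. These windows therefore do not adjoin the spans. Capitals mark matches to the motifs described after the sequences.
Cdhr1: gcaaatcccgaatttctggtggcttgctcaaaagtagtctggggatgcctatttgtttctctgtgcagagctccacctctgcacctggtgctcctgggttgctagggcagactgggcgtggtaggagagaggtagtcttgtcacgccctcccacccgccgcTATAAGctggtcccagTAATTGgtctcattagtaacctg
Eomes: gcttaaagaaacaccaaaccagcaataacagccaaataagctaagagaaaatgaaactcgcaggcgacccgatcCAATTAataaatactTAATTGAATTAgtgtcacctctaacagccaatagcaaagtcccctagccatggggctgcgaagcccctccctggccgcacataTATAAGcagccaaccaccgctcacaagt
Th: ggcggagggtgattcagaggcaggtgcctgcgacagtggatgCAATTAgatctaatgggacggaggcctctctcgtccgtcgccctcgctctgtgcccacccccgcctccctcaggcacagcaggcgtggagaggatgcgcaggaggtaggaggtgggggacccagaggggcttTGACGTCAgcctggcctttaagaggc
Trh: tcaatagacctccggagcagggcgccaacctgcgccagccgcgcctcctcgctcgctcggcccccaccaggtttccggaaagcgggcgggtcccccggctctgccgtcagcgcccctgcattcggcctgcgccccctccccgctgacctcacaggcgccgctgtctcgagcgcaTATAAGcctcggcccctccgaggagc

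Over the 250 bases before each of 32851 RefSeq starts, on both strands, a TATA box written TATAAN was present in 22.7% of promoters. The homeodomain core TAATTN was found in 24.9%, the cAMP response element TGACGTCA in 1.55% and the T-box core AGGTGT in 11.8%, *Doc2g* being the member with a match to the latter. Counting the base before the start as -1, *Cdhr1* held TATAAG at -39 and TAATTG at -23, and *Trh* held TATAAG at -26. *Eomes* held TATAAG at -28 and 3 homeodomain matches, at -126, -111 and -106, of which the last and the one before it share 1 base. *Th* held the cAMP response element at -45 and a homeodomain match at -177. *Tbx21* held none of the 4 motifs in the 200 bases before its start. No motif was held by all members, and a match gives letters only.

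Expression was deposited as FPKM, the fragments of a gene divided by its exon length and by the size of the library, so that levels can be compared between genes. *Slc6a8* itself was measured at 12.4, 14.9, 14.7 and 15.7 FPKM in CrT-/y 0 to 3 and at 32.3, 29.6 and 28.0 FPKM in CrT+/y 1 to 3, which fits the labels of all 7 animals. Its gene-level value includes the exons outside the deletion. Column sums ranged from 382949 to 403414 FPKM, read counts per library are not in the table, and the deepest library was estimated at 1.43 times the shallowest from 2029 weakly expressed genes. CrT+/y 2 stood apart for choroid plexus genes, with a summed level of 408 FPKM against at most 53.5 FPKM in the other animals, and CrT-/y 1 for *Cdhr1*, so differences that rest on them are given with and without these animals. Of all genes, 12988 had a mean of at least 1 FPKM and were tested with limma on log2(FPKM + 0.1). With Benjamini-Hochberg adjustment and a threshold of 0.1, 1318 of them (10.1%) were called, 377 higher in CrT-/y animals (2.90%) and 941 lower (7.25%). This count depended on single animals, being 64 without CrT-/y 1 and 3736 without CrT+/y 3.

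All 6 members were detected in all 7 animals, and none was abundant. *Cdhr1*, *Doc2g*, *Th* and *Trh* passed the filter of 1 FPKM, and *Eomes* and *Tbx21*, with means of 0.312 and 0.140 FPKM in CrT-/y animals, did not. The mean of *Cdhr1* over the 7 animals was above that of 56.1% of all genes and the mean of *Tbx21* above that of 34.1%. These shares count all 24346 genes, of which 5246 were listed at 0 in all animals. Group means were higher in CrT-/y than in CrT+/y animals for all 6 genes, and the groups did not overlap for 1 of them, *Cdhr1*. Over all tested genes, every CrT-/y value lay above every CrT+/y value in 6.57% and below in 15.0%. The members' shares cannot be read against these values, since the same comparison chose them.

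*Cdhr1* encodes a cadherin-related membrane protein of photoreceptors and of mitral and tufted cells. It was measured at 3.13, 9.14, 2.83 and 3.44 FPKM in CrT-/y 0 to 3 and at 1.02, 2.45 and 1.02 FPKM in CrT+/y 1 to 3. CrT-/y 1 held 2.66 times the level of the next highest animal, and CrT+/y 2 held 2.41 times the mean of the other CrT+/y animals. The lowest CrT-/y value, 2.83 FPKM, was above the highest CrT+/y value, 2.45 FPKM. CrT-/y animals averaged 4.64 ± 3.02 FPKM (SD, n = 4) and CrT+/y animals 1.50 ± 0.827 FPKM (SD, n = 3), a ratio of 3.10. The difference on the log2(FPKM + 0.1) scale was 1.51 (SE 0.42). Without CrT-/y 1 the CrT-/y mean was 3.13 ± 0.305 FPKM (SD, n = 3), and the ratio was 2.09. Most of the spread in the CrT-/y group thus came from 1 animal, and the groups did not overlap with or without it.

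*Doc2g* encodes a C2-domain protein of the Doc2 family, whose other members act in vesicle release, and its transcript is typical of mitral and tufted cells. Levels were 4.20, 6.18, 3.03 and 2.42 FPKM in CrT-/y 0 to 3 and 2.39, 2.62 and 1.86 FPKM in CrT+/y 1 to 3. CrT-/y 1 was again the highest, and CrT-/y 3 lay below CrT+/y 2, so the groups overlapped. Means were 3.96 ± 1.66 FPKM (SD, n = 4) and 2.29 ± 0.391 FPKM (SD, n = 3), a ratio of 1.73, and the log2 difference was 0.69 (SE 0.28). Without CrT-/y 1 the CrT-/y mean of *Doc2g* was 3.22 ± 0.901 FPKM (SD, n = 3), the ratio 1.41 and the log2 difference 0.45.

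**Figure D1:**
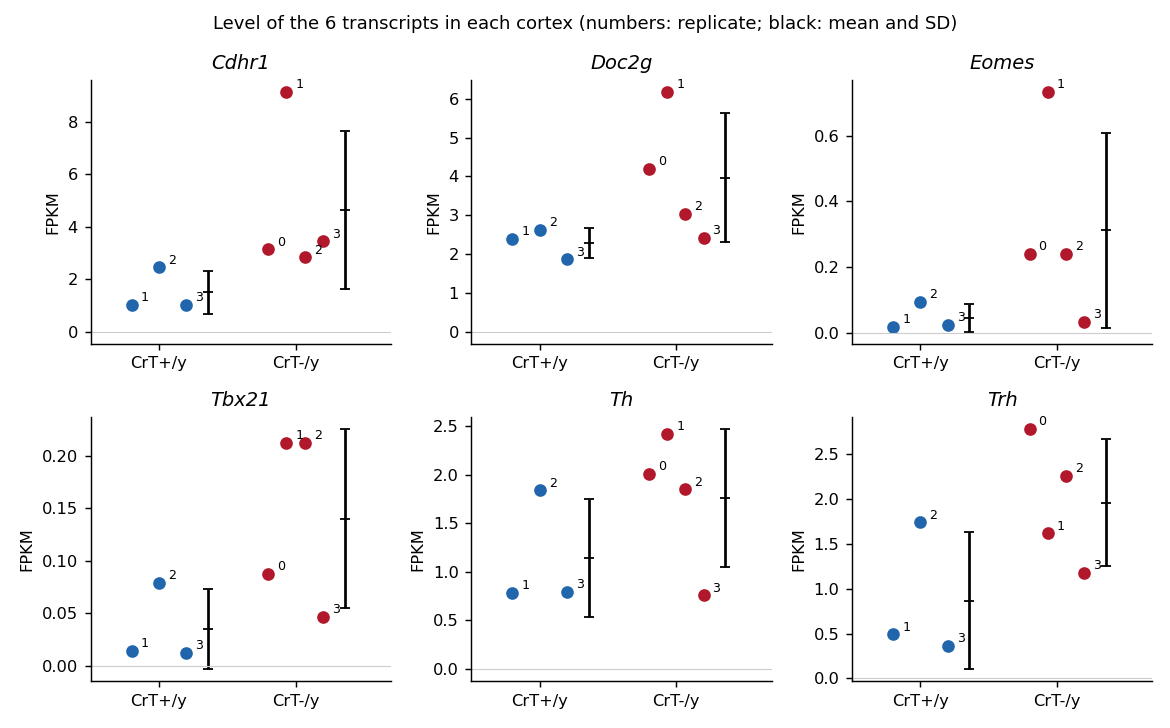
Level of each of the 6 transcripts in FPKM (linear axes that differ between panels) for the 3 CrT+/y animals (blue) and the 4 CrT-/y animals (red), with the animal's number beside each point and the mean and SD in black. CrT-/y 1 is the highest point for *Cdhr1* (9.14), *Doc2g* (6.18), *Eomes* (0.733) and *Th* (2.42), and CrT+/y 2 is the highest CrT+/y point in every panel.

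*Eomes* (also Tbr2) and *Tbx21* (also T-bet) encode T-box transcription factors of mitral and tufted cells, and *Eomes* also marks progenitors of glutamatergic neurons during development. *Eomes* was at 0.242, 0.733, 0.241 and 0.0342 FPKM in CrT-/y 0 to 3 and at 0.0203, 0.0952 and 0.0258 FPKM in CrT+/y 1 to 3. Of the CrT-/y animals, 3 lay above every CrT+/y animal, and CrT-/y 3 lay below CrT+/y 2. *Tbx21* was at 0.0875, 0.212, 0.212 and 0.0466 FPKM in CrT-/y 0 to 3 and at 0.0140, 0.0787 and 0.0119 FPKM in CrT+/y 1 to 3, and the same 3 CrT-/y animals lay above every CrT+/y animal. From the smallest values in the table, 1 fragment is worth roughly 0.011 FPKM for *Eomes* and 0.016 FPKM for *Tbx21*. The lowest values of both genes, in CrT+/y 1 and 3, are thus near the level of single fragments, and no ratio is given for them. For *Tbx21*, CrT-/y 0 (0.0875 FPKM) and CrT+/y 2 (0.0787 FPKM) also differed by less than 1 fragment, so their order is not resolved.

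*Th* encodes tyrosine hydroxylase, the rate-limiting enzyme of catecholamine synthesis, which dopaminergic periglomerular cells, midbrain neurons and a few cortical interneurons use. Its levels were 2.01, 2.42, 1.85 and 0.759 FPKM in CrT-/y 0 to 3 and 0.785, 1.84 and 0.796 FPKM in CrT+/y 1 to 3. The lowest animal of all was CrT-/y 3, and CrT+/y 2 lay beside CrT-/y 2, so the CrT-/y values spanned those of all CrT+/y animals. Means were 1.76 ± 0.710 FPKM (SD, n = 4) and 1.14 ± 0.606 FPKM (SD, n = 3), a ratio of 1.54. The log2 difference of *Th* was 0.58 (SE 0.40), 0.96 without CrT+/y 2 and 0.36 when 1 in place of 0.1 FPKM was added.

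*Trh* encodes the precursor of thyrotropin-releasing hormone, a tripeptide made in the hypothalamus and in several other regions, the bulb among them. It was at 2.78, 1.62, 2.26 and 1.18 FPKM in CrT-/y 0 to 3 and at 0.494, 1.74 and 0.365 FPKM in CrT+/y 1 to 3. *Trh* was the only member highest in CrT-/y 0, and CrT+/y 2 lay above 2 of the 4 CrT-/y animals. Means were 1.96 ± 0.704 FPKM (SD, n = 4) and 0.867 ± 0.761 FPKM (SD, n = 3), a ratio of 2.26. The log2 difference was 1.30 (SE 0.46), 1.90 without CrT+/y 2 and 0.71 with 1 FPKM added.

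**Figure D2:**
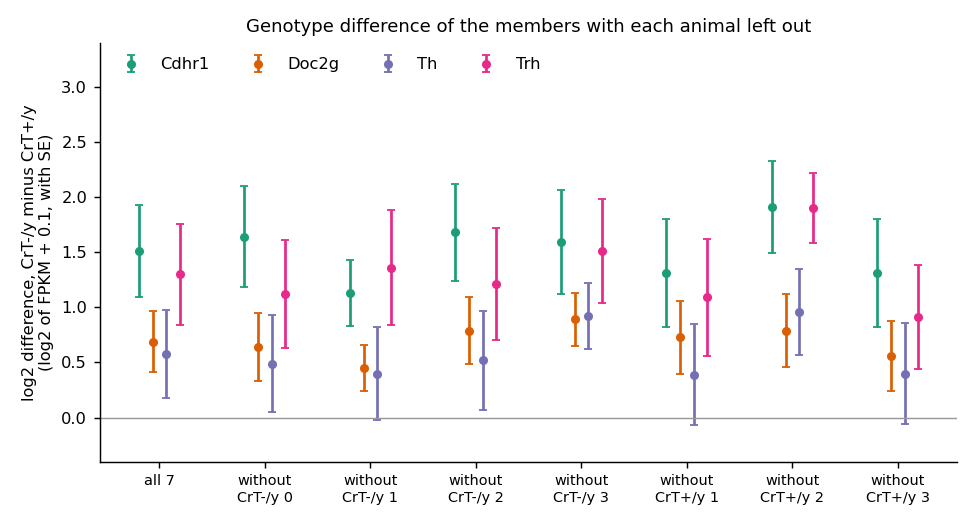
Genotype difference (CrT-/y minus CrT+/y, log2 of FPKM + 0.1, with its SE as error bar) of the 4 members above 1 FPKM, with all 7 animals and with each animal left out in turn. The difference of *Cdhr1* ranges from 1.13 without CrT-/y 1 to 1.91 without CrT+/y 2, that of *Th* from 0.39 without CrT+/y 1 to 0.96 without CrT+/y 2, and no point lies below 0. The error bar of *Th* reaches below 0 without CrT-/y 1, without CrT+/y 1 and without CrT+/y 3.

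The 6 genes were compared over the 7 animals as a description, with the reservation that the points share the genotype groups and the low depth of *Eomes* and *Tbx21*. *Doc2g*, *Eomes*, *Tbx21*, *Th* and *Trh* were higher in CrT-/y 0, CrT-/y 1, CrT-/y 2 and CrT+/y 2 than in CrT-/y 3, CrT+/y 1 and CrT+/y 3. This split does not follow genotype. Pearson's r of log2(FPKM + 0.1) ranged from 0.66 (*Doc2g* and *Trh*) to 0.95 (*Doc2g* and *Eomes*) over the 15 pairs (n = 7 animals). For *Cdhr1* it was 0.86 with *Doc2g*, 0.85 with *Eomes*, 0.81 with *Tbx21*, 0.71 with *Th* and 0.70 with *Trh*. Its rank correlations with *Th* and *Trh* were lower, at 0.43 and 0.46. *Cdhr1* differed from the other members in CrT-/y 3, where it was the second highest of the 7 animals (3.44 FPKM), while *Th* was at its lowest there.

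Among the 614 tested genes whose highest animal was at least 1 log2 unit above the lowest, the 10 with the highest r to *Cdhr1* were *Oprk1*, *Hcn4*, *Pwwp2b*, *Cacng5*, *Sp3os*, *Gm17750*, *Strip2*, *Lppr1*, *Sp9* and *4833415N18Rik*, with r between 0.907 and 0.965 (n = 7 animals). *Oprk1*, the kappa opioid receptor, was at 2.86, 3.97, 2.85 and 3.33 FPKM in CrT-/y 0 to 3 and at 1.77, 2.46 and 2.04 FPKM in CrT+/y 1 to 3. *Hcn4*, a hyperpolarization-activated cation channel, was at 1.63, 2.01, 1.55 and 1.86 FPKM against 0.953, 1.47 and 0.981 FPKM. In both genes, as in *Cdhr1*, CrT-/y 1 was highest, CrT+/y 2 was the highest CrT+/y animal and the groups did not overlap. All 10 were highest in CrT-/y 1 and had CrT+/y 2 as the highest CrT+/y animal, and in 4 of the 10 every CrT-/y value lay above every CrT+/y value, beside 6.57% of all tested genes. Since they were picked for following *Cdhr1*, which was chosen on its genotype difference, these counts follow from the choice. The r of their deviations from the genotype means was between 0.786 and 0.963, and without CrT-/y 1 the r of their levels was between 0.842 and 0.993. The list itself turned on that animal, since 0 of the 10 were among the first 10 when it was left out, and 0 of the 10 when 1 FPKM was added. *Doc2g* ranked 19, *Th* 100 and *Trh* 104 of the 614.

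**Figure D3:**
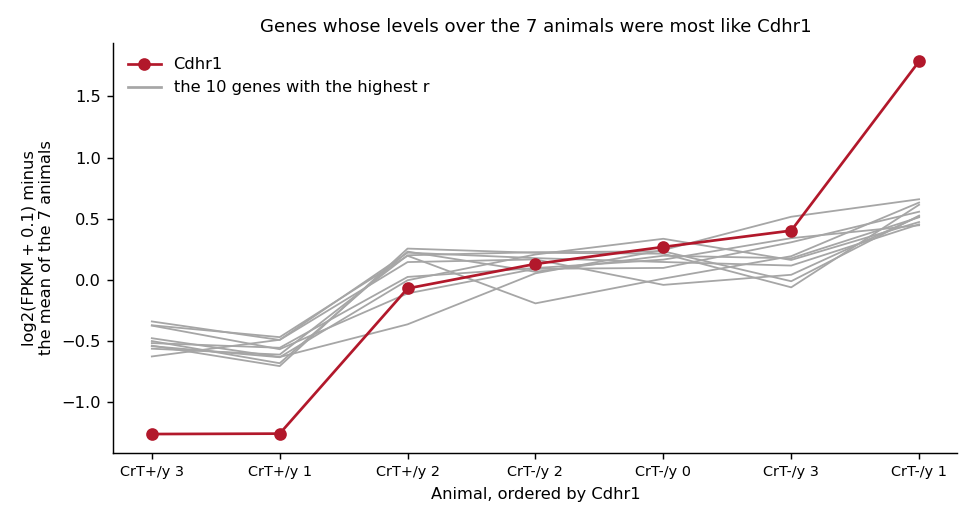
Level of *Cdhr1* (red) and of the 10 genes with the highest correlation to it (grey) in each animal, as log2(FPKM + 0.1) minus the mean of the 7 animals, with animals ordered by *Cdhr1*. The grey lines rise from CrT+/y 3 and CrT+/y 1 on the left to CrT-/y 1 on the right, where *Cdhr1* reaches 9.14 FPKM, and their span is smaller than that of *Cdhr1*.

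Further genes of the bulb were taken from 5 lists that hold none of the 6 members and 51 genes in all. Of these, 36 were tested, and 3 were called higher and 1 lower, beside 2.90% and 7.25% of all tested genes. An unadjusted p under 0.05 was found for 12 of the 36, beside 25.0% of all tested genes, and 25 of the 36 differences were positive, beside 41.8%, with a median of 0.10 on the log2 scale against -0.033 over all tested genes. By animal, CrT-/y 1, CrT+/y 1 and CrT+/y 2 were each the highest in 9 of the 36 genes, and CrT+/y 3 was the lowest in 12 and CrT+/y 1 in 11. The count was 0 when CrT-/y 1, CrT-/y 2 or CrT+/y 1 was left out, where the count over all genes also dropped to 64, 223 and 247, and it was 9 without CrT+/y 2. The differences themselves kept their sign and most of their size under all alternatives, from -0.55 to -0.36 for *Cck*, 0.62 to 0.85 for *Calb2*, 0.32 to 0.44 for *Dlx1* and 0.36 to 0.62 for *Fabp7*.

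Of 12 further genes of mitral and tufted cells, 7 were tested and 1 was called. *Cck*, the neuropeptide cholecystokinin, which tufted cells and many cortical neurons make, was lower in CrT-/y animals, at 551 ± 29.5 FPKM (SD, n = 4) against 748 ± 104 FPKM (SD, n = 3) (log2 difference -0.43, SE 0.10, limma adjusted p = 0.0499). It took 86.3% of the list's summed FPKM and its difference had the opposite sign to that of *Cdhr1*. *Nts*, the neuropeptide neurotensin, was at 3.63, 3.38, 5.57 and 2.20 FPKM in CrT-/y 0 to 3 and at 0.314, 3.79 and 1.24 FPKM in CrT+/y 1 to 3. Its difference of 1.48 (SE 0.63) was not called (limma adjusted p = 0.184), and CrT+/y 2 lay above 3 of the 4 CrT-/y animals. *Nmb*, neuromedin B, had a difference of 0.95 (SE 0.32, limma adjusted p = 0.119), and *Slc17a6*, the vesicular glutamate transporter of mitral cells and of the thalamus, one of -0.27 (adjusted p = 0.19). The defining factors *Lhx1* and *Lhx5* were below the filter, with group means of 0.0307 to 0.0383 FPKM.

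In the periglomerular list 11 of 12 genes were tested. *Calb2*, which encodes the calcium-binding protein calretinin of periglomerular cells and of cortical interneurons, was called higher at 12.6 ± 1.89 FPKM (SD, n = 4) against 7.77 ± 1.50 FPKM (SD, n = 3), with a log2 difference of 0.69 (SE 0.15, limma adjusted p = 0.0436). The forebrain interneuron factors *Dlx6* (0.61, limma adjusted p = 0.192) and *Dlx5* (0.09) were not called. *Slc6a3*, the dopamine transporter that would accompany *Th* in dopaminergic cells, was below the filter at 0.0526 to 0.266 FPKM in CrT-/y and 0.0105 to 0.0741 FPKM in CrT+/y animals.

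Granule cells and their neuroblasts were represented by 13 genes, of which 11 were tested and 10 had a positive difference. *Dlx1*, a homeobox factor of inhibitory neurons, was called higher, at 5.19 ± 0.271 FPKM (SD, n = 4) against 3.96 ± 0.180 FPKM (SD, n = 3), a log2 difference of 0.38 (SE 0.08, limma adjusted p = 0.0417). *Sp8*, a zinc finger factor of bulb interneurons, was at 1.40, 1.65, 1.47 and 1.20 FPKM in CrT-/y 0 to 3 and at 0.654, 1.24 and 0.519 FPKM in CrT+/y 1 to 3. Its difference of 0.83 (SE 0.26) lay just outside the threshold and was called under 4 of 17 alternatives. The related *Sp9* (0.58, limma adjusted p = 0.174), which is also among the 10 genes most like *Cdhr1*, and *Cd24a* (0.14) were not called.

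Olfactory ensheathing glia and sensory neurons, whose axons form the outer layer of the bulb, gave 1 call. *Fabp7*, a fatty acid binding protein that astrocytes also make, was higher in CrT-/y animals, at 23.7 ± 2.36 FPKM (SD, n = 4) against 16.7 ± 3.00 FPKM (SD, n = 3), with a log2 difference of 0.51 (SE 0.12, limma adjusted p = 0.0586). The other ensheathing genes *Mybpc1* (-0.42, limma adjusted p = 0.202) and *Frzb* (0.04) were not called. Of the 10 sensory neuron genes 4 were tested, none was called by limma and 0 had an unadjusted p under 0.05. *Ano2*, the olfactory chloride channel, was at 1.12, 2.42, 1.18 and 0.793 FPKM in CrT-/y 0 to 3 and at 0.323, 1.20 and 0.635 FPKM in CrT+/y 1 to 3 (difference 0.89, SE 0.43, limma adjusted p = 0.229). *Gng13* (-0.02, limma adjusted p = 0.954) was highest in CrT-/y 3 and *Gnal* (0.11, limma adjusted p = 0.6) in CrT+/y 2. Of the 4 tested genes, 2 had a positive difference and 1, *Ano2*, was highest in CrT-/y 1. *Omp*, the marker of mature sensory neurons, was between 0.0710 and 0.533 FPKM in CrT-/y and between 0.118 and 0.143 FPKM in CrT+/y animals. *S100a5*, chosen after its values were seen, was at 0.250, 1.38 and 0.790 FPKM in CrT-/y 0, 1 and 2 and listed at 0 in CrT-/y 3 and in all 3 CrT+/y animals. Both *Omp* and *S100a5* were highest in CrT-/y 1. The rest of the sensory neuron genes below the filter did not share this. *Cnga2* and *Umodl1* were highest in CrT-/y 3, *Rtp1* in CrT-/y 0 and *Stoml3* in CrT+/y 2. Of the 15 bulb genes below the filter, 12 were highest in a CrT-/y animal, 6 of them in CrT-/y 1.

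The genes that work with the members were examined as pathways. Of 10 genes of catecholamine synthesis and clearance, 8 were tested and *Maob*, the monoamine oxidase of astrocytes and serotonergic cells, was called lower (log2 difference -0.26, SE 0.08, limma adjusted p = 0.0952). The enzymes and transporter that follow or support *Th* were not called, *Ddc* with a difference of 0.13 (limma adjusted p = 0.611), *Slc18a2* with -0.17 and *Qdpr* with -0.19. All 7 genes of TRH processing and reception were tested. *Trhde*, the ectoenzyme that degrades TRH, was called lower (-0.22, SE 0.06, limma adjusted p = 0.0902), while the receptors *Trhr* (0.23) and *Trhr2* (-0.00) and the prohormone convertase *Pcsk1* (-0.11) were not called. Among the tested relatives of the members, *Doc2a*, a calcium sensor of spontaneous transmitter release, was called higher at 21.8 ± 2.06 FPKM (SD, n = 4) against 17.0 ± 1.87 FPKM (SD, n = 3), a difference of 0.36 (SE 0.09, limma adjusted p = 0.0659). *Doc2b* (0.20) and the cortical T-box factor *Tbr1* (-0.21) were not called. Of the 18 tested genes of the 3 lists, 1 was called higher and 2 lower, beside 2.90% and 7.25% of all tested genes. The calls of *Doc2a*, *Maob* and *Trhde* held under 11, 4 and 5 of 18 alternatives.

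Markers of the tissue and of its neighbours were read in the same libraries. Cortical excitatory neuron genes were high in every animal, their summed FPKM being 761 to 843 in CrT-/y and 765 to 912 in CrT+/y animals, with 74.3% of it from *Slc17a7*. *Neurod6*, a transcription factor of projection neurons, was called lower (-0.42, SE 0.10, limma adjusted p = 0.0609), and the call held under 10 of 18 alternatives. Hypothalamic genes, which could accompany *Trh*, summed to between 2.62 and 3.86 FPKM, and those of midbrain dopamine neurons, which could accompany *Th*, to between 1.46 and 2.33 FPKM, with *Foxa1* listed at 0 in all animals. Single genes made up most of these sums, *Pomc* 59.0% of the former and *Slc18a2* 87.9% of the latter. *Slc6a3* and *Pitx3* of the midbrain list, which were chosen after their values were seen, were highest in CrT-/y 1, at 0.266 and 0.167 FPKM. The rest of that list did not share this, *Slc18a2* being highest in CrT+/y 1, *Lmx1b* in CrT-/y 0 and *En1*, *Foxa2* and *Lmx1a* in CrT+/y 2. The part of these regions in the levels of *Trh* and *Th* was not tested. Over the dentate gyrus, cerebellum and thalamus lists, 1 gene was called, *Npnt* of the dentate gyrus list (-0.33, SE 0.09, limma adjusted p = 0.0831). That call held under 6 of 18 alternatives.

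Striatal genes varied with the members from animal to animal. The 8 striatal markers summed to 427, 503, 288 and 219 FPKM in CrT-/y 0 to 3 and to 120, 462 and 210 FPKM in CrT+/y 1 to 3. All 8 were detected in every animal, all 8 were lowest in CrT+/y 1, and 6 were highest in CrT-/y 1 and 2 in CrT+/y 2. Their 8 genotype differences were positive with a median of 0.69 on the log2 scale, none was called by limma, and 1 had an unadjusted p under 0.05. Pearson's r between the log2 of this sum and a member's log2 level was 0.75 for *Cdhr1*, 0.70 for *Doc2g*, 0.76 for *Eomes*, 0.70 for *Tbx21*, 0.88 for *Th* and 0.77 for *Trh* (n = 7 animals, a description that shares libraries and genotype groups). At nearly equal striatal sums of 427 and 462 FPKM, CrT-/y 0 had 3.13 and CrT+/y 2 had 2.45 FPKM of *Cdhr1*, and at 219 and 210 FPKM, CrT-/y 3 had 3.44 and CrT+/y 3 had 1.02 FPKM. For *Th* the same pairs of animals held 2.01 against 1.84 FPKM and 0.759 against 0.796 FPKM. *Doc2g* was at 4.20 against 2.62 and 2.42 against 1.86 FPKM, and *Trh* at 2.78 against 1.74 and 1.18 against 0.365 FPKM. CrT-/y 1, at a sum of 503 FPKM, was also near CrT+/y 2. It had 9.14 FPKM of *Cdhr1*, 2.42 of *Th* and 6.18 of *Doc2g*, all above CrT+/y 2. Its *Trh*, at 1.62 FPKM, was below the 1.74 FPKM of CrT+/y 2. Each pair is 1 animal against 1. The part of this variation in the members' levels was not tested.

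**Figure D4:**
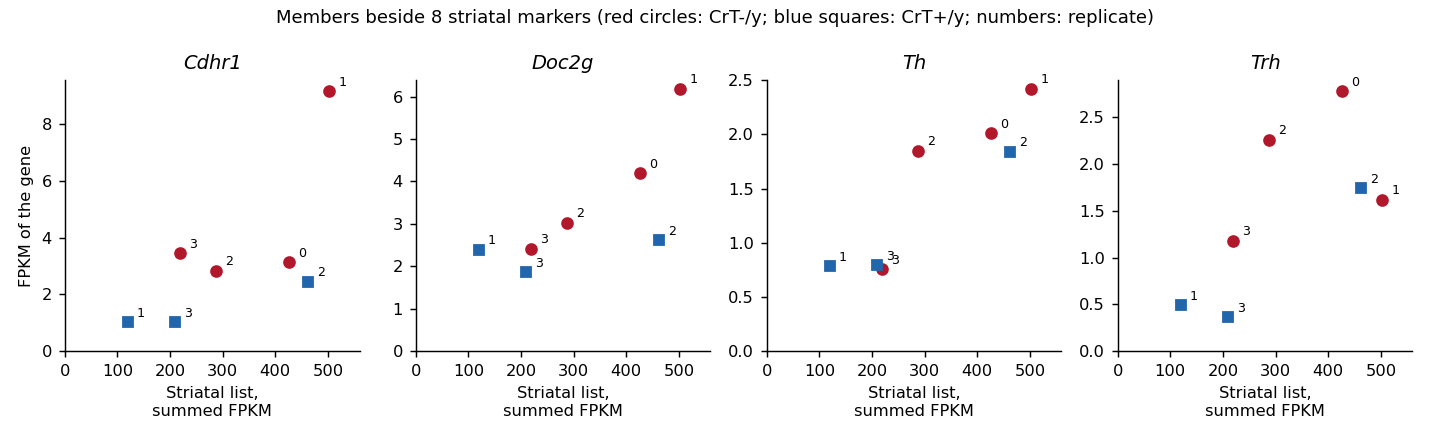
FPKM of *Cdhr1*, *Doc2g*, *Th* and *Trh* against the summed FPKM of the 8 striatal markers in each animal (red circles CrT-/y, blue squares CrT+/y, numbers as in the labels, linear axes from 0). *Th* is between 0.759 and 0.796 FPKM in the 3 animals with the lowest sums and between 1.84 and 2.42 FPKM in the others, and *Cdhr1* has CrT-/y 1 at the top right with 9.14 FPKM and CrT-/y 3 above CrT+/y 3 at similar sums.

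Choroid plexus genes set CrT+/y 2 apart. The sum of 8 markers was 53.5, 28.0, 7.92 and 4.01 FPKM in CrT-/y 0 to 3 and 6.70, 408 and 21.1 FPKM in CrT+/y 1 to 3, with 90.1% of it from *Ttr*, the thyroid hormone carrier of that tissue. Of the 8 genes 4 were tested, none was called by limma and 0 had an unadjusted p under 0.05. CrT+/y 2 was also the CrT+/y animal with the highest level of all 6 members, and the part of its composition in these levels was not tested. The differences of *Cdhr1*, *Th* and *Trh* were higher without it, at 1.91, 0.96 and 1.90.

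**Figure D5:**
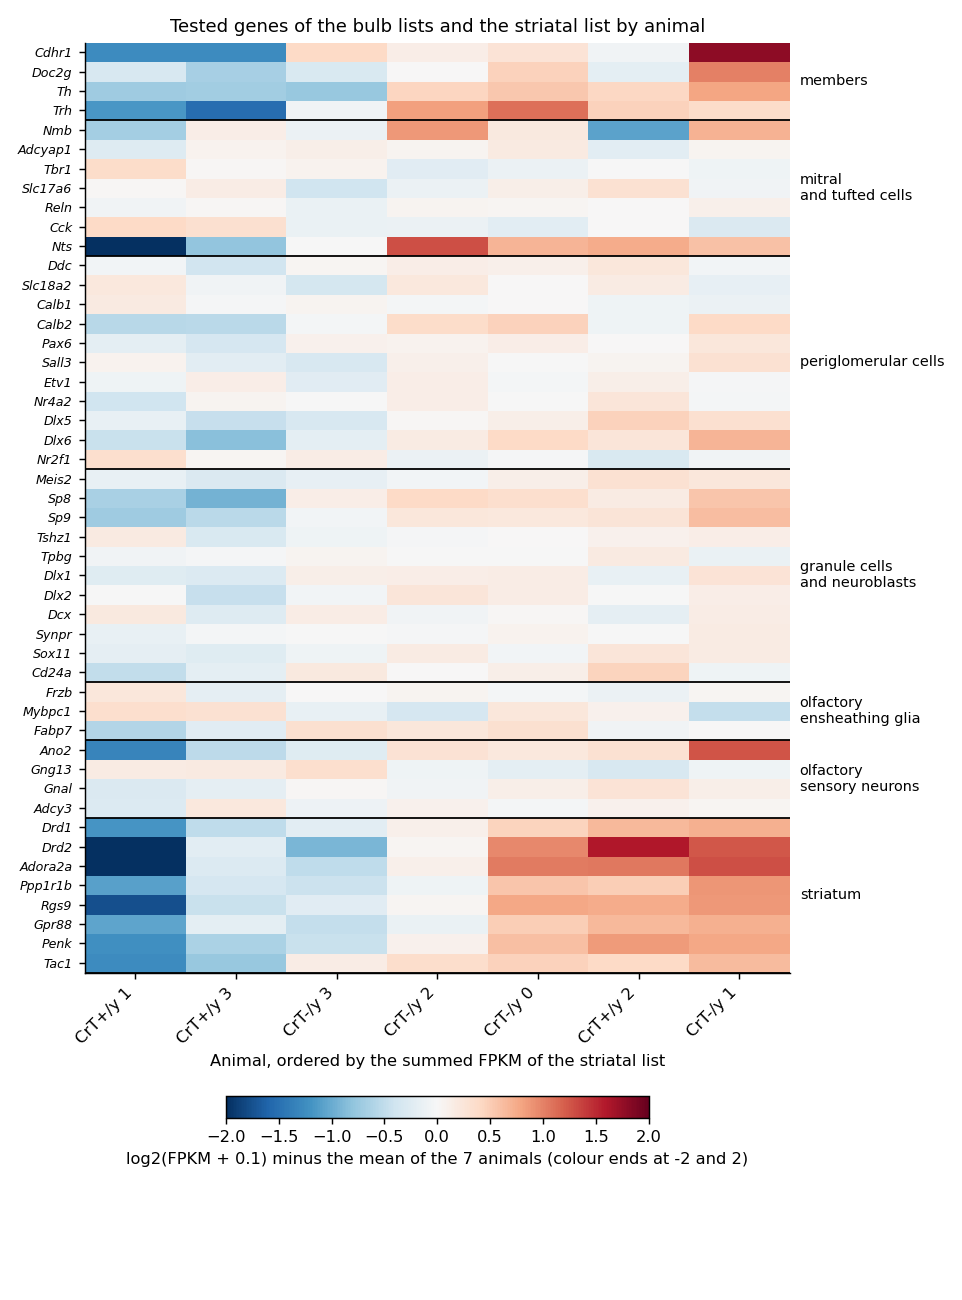
Tested members, genes of the 5 bulb lists and striatal markers (rows) in the 7 animals (columns, ordered by the summed FPKM of the striatal list), coloured by log2(FPKM + 0.1) minus the mean of the 7 animals, from blue (-2 or lower) to red (2 or higher). The striatal rows and those of *Th*, *Trh*, *Dlx6*, *Sp8* and *Sp9* turn from blue on the left to red on the right, while rows such as *Cck*, *Tbr1* and *Nr2f1* are highest in CrT+/y 1.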

How the data were processed

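Bulk RNA-seq of cerebral cortex from 4 CrT-/y and 3 CrT+/y mice was analysed. The authors aligned reads to mm10 with the Tuxedo protocol (the submitters' processing notes name Bowtie and Cuffnorm), kept uniquely aligned reads of known exons and junctions, and deposited FPKM per gene and animal. FPKM are not counts, and limma was therefore used in place of a count model. No column of animals was left unused (0 columns). The members and the gene lists were chosen with earlier results of these data known.

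Genes averaging 1 FPKM or more were put on the log2 scale after adding 0.1 and fitted on genotype with limma 3.58.1 (R 4.3.3, trend of the variance on expression, Benjamini-Hochberg over 12988 genes, threshold 0.1, limma and threshold as in the methods of the study). The added 0.1 understates differences of low genes. Each library is 1 animal, and the litter of each is not given, so litter was not in the fit. The p-values set the genotype difference against the spread within genotype of these 7 animals, with the variance moderated across genes. Summaries used Python 3.11.15, numpy 2.4.6, pandas 2.3.3 and scipy 1.17.1. Of 60 list genes of other regions and 51 of the bulb all matched a symbol (*Lbhd2* through its synonym *A230065H16Rik*), and of 27 of the pathways 26 did; *Cdhr4* was not analysed here.

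Named are all members, every called gene of a list, the 10 genes most like *Cdhr1* and *Slc6a8*. The 3 bulb or pathway genes per list with the widest range over animals are also named. *Omp*, *S100a5*, *Lhx1*, *Lhx5*, *Slc6a3*, *Ttr*, *Pitx3* and other genes of the midbrain and sensory neuron lists were named as markers after their values were seen. One item that the rule would name is not reported here.

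On simulated data with 200 of 12988 genes changed, 18% of changes of 0.3 on the log2 scale were recovered, 77% of changes of 0.6 and 95% of changes of 1, with 14.3%, 14.9% and 9.95% false calls. The simulated noise was independent between genes. In the real animals genes such as the striatal markers varied together, so these rates need not hold for them. Alternatives changed the pseudocount, filter, scaling, moderation, weights, a block on the replicate number and the animals included.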

Additional observations from a re-analysis of the deposited data

Results flagged for a closer look

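For 2 of 24 values examined among the CrT-/y animals (the 6 members, the 10 genes most like *Cdhr1*, and the sums of the 5 bulb lists and of the cortical, striatal and choroid plexus lists), the gap between the extreme animal and its neighbour was large against the range of the group. Chance alone gives such a value in about 1 of 20 groups. For *Cdhr1* the gap of CrT-/y 1, at 9.14 FPKM, was 0.903 of the whole range of the 4 CrT-/y animals. For *Strip2*, named for its likeness to *Cdhr1*, the same animal was at 13.9 FPKM and its gap was 0.836 of the range. Both stand out in CrT-/y 1. The set was chosen on the values of *Cdhr1* and *Strip2* was named because it varied with *Cdhr1*, so neither is an independent test.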

How the results depend on the processing

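The log2 differences of *Cdhr1* (1.10 to 1.64), *Doc2g* (0.54 to 0.75), *Th* (0.36 to 0.64) and *Trh* (0.71 to 1.44) kept their sign under the 10 alternatives on scaling, pseudocount, filter, weights and block that left them a value, and under each left-out animal. No member had a mean of 5 FPKM, so that filter gave them none. Counts of called genes moved more. Of all genes, 1318 were called, and 730 without a filter. The share of calls that were higher in CrT-/y animals was 28.6%, and 48.8%, 61.5% and 48.2% under quantile normalization, upper quartile scaling and median centring. With each animal left out in turn, the count ranged from 64 (without CrT-/y 1) to 3736 (without CrT+/y 3), that of the bulb lists from 0 (without CrT-/y 1, CrT-/y 2 or CrT+/y 1) to 9 (without CrT+/y 2), against 4, and that of the lists of other regions from 0 (without CrT-/y 0, CrT-/y 1 or CrT+/y 1) to 6 (without CrT+/y 2), against 3. The latter was 0 without a filter and 1 under quantile normalization, upper quartile scaling, median centring and moderation without trend. Of the 10 genes most like *Cdhr1*, 3 remained by rank correlation, 5 for deviations from the genotype means, 0 with 1 FPKM added, 3 at a filter of 0.1 FPKM, and 0 (without CrT-/y 1) to 9 (without CrT-/y 0) with an animal left out. The cause of these changes was not tested.

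Same-numbered animals of the 2 genotypes did not deviate together (r of -0.078, 0.046 and -0.051 over 12988 genes), so the numbers were not taken as pairs. A block on them gave 576 calls, 2 in the bulb lists (*Calb2* and *Fabp7*) and 1 (*Neurod6*) in the lists of other regions. Read counts per library were not used here, and *Eomes* and *Tbx21* were near the level of single fragments in some animals.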
